A study of Mus musculus with 16 samples.

Results

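Transcripts of the MYC, MAX and MXD network were followed in mouse embryonic fibroblasts through 9 genes. These were the activators Myc and Mycn, their partner Max, the repressors Mxd1, Mxd3, Mxd4, Mxi1 and Mnt, and Mlx, the partner in the parallel branch of the network. A gene was taken where a probe set of the array carried its symbol and no other. Each of the 9 genes had exactly 1 such probe set, so no choice between probe sets had to be made, and they are 9 of the 19938 genes tested.

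MYC and MYCN are transcription factors of the basic helix-loop-helix leucine zipper family, which bind DNA at E-box sequences only as dimers with MAX and drive genes of growth, ribosome production and nucleotide synthesis. The MXD proteins, MXI1 and MNT compete for MAX and recruit SIN3 and histone deacetylases to the same sites, and MLX pairs with MondoA and ChREBP, the sensors of glucose metabolites, and with some of the repressors. MYC proteins are short-lived and are destroyed by the proteasome. The arrays read RNA only, and no protein level enters this account.

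The cells were of 2 lines, wild-type fibroblasts with a scramble short hairpin RNA (called control here) and fibroblasts stably expressing a hairpin against Atf5, a stress-responsive transcription factor (knockdown). Each line was kept for 8 h in DMSO (vehicle, called untreated below) or with the proteasome inhibitor MG132 at 1 µM, with 4 plates and 4 arrays in each of the 4 groups. The sources used here do not say whether the knockdown line is a clone or a pool, and a difference between the lines cannot be told apart from the knockdown itself. The plates are not said to come from separate cultures, so p-values measure the spread between these plates, which may be technical. In bulk RNA, fewer cells of a kind and less RNA per cell cannot be told apart.

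The median log2 value of an array was 7.71 to 7.82, and no 2 arrays were identical. With vehicle the mean of Atf5 was 8.35 ± 0.06 in the knockdown line and 8.57 ± 0.10 in the control line (SD, n = 4 each), a log2 difference of -0.22 ± 0.05 (limma adjusted p = 0.00321). The fibroblast markers Vim, Fn1 and S100a4 stood at the 99.98th, 99.7th and 98.5th percentiles of all genes by mean level, while Lum stood at the 3.54th. The mean level over 10 fibroblast markers was 10.56 to 10.60 in control vehicle arrays and 10.34 to 10.36 in control MG132 arrays, and 10.67 to 10.74 and 10.49 to 10.56 in the knockdown pair, with 5 of 10 called lower in each response and 1 (Pdgfra) and 3 (Pdgfra, Fn1 and Lum) called higher. Over 5 neuron markers it was 7.61 to 7.70, 7.88 to 7.94, 7.73 to 7.80 and 7.91 to 7.95 in that order, with 2 and 1 of 5 called higher. The part of these shifts in the results below was not tested. MG132 changed 35.8% of all genes in control cells (16.8% higher, 19.0% lower) and 40.7% in knockdown cells (16.4% higher, 24.3% lower). With each array centred on its median the splits were 2150 higher and 4624 lower in place of 3341 and 3796, and 1833 and 5795 in place of 3276 and 4848.

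Promoter windows were used for 8 of the 9 genes, all but Myc, from 250 bases before to 50 bases after the transcription start (RefSeq, GRCm38.p6, 10 windows, as Mxi1 has 3). The canonical E-box CACGTG, the letters that dimers of this network are known to bind, is a palindrome and was searched as such. It occurred in the windows of Max, Mxd4, Mnt and Mlx, 4 of 8 genes and 4 of 10 windows, against 7.15% of all 32851 windows. TTTNNCGC, a motif of the kind bound by E2F factors, was searched on both strands. It occurred in the window of Mycn, at 3 places of which the first 2 overlap on opposite strands, and in 5.17% of all windows. The 5 windows with a match are shown, that of Mycn, the gene whose transcript moved farthest, and those of the 4 genes with an E-box. A link between either motif and the transcript levels was not tested. Capitals mark the motifs, and each sequence runs 5′ to 3′ on the gene's strand.
Mycn, chr12:12941787-12942086, minus strand: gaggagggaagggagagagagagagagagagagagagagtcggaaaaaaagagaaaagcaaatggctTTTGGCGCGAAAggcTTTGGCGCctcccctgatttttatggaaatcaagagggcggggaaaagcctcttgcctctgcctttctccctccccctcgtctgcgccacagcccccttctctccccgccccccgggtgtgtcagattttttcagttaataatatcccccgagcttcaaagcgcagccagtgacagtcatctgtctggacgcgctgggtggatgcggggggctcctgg
Max, chr12:76962199-76962498, minus strand: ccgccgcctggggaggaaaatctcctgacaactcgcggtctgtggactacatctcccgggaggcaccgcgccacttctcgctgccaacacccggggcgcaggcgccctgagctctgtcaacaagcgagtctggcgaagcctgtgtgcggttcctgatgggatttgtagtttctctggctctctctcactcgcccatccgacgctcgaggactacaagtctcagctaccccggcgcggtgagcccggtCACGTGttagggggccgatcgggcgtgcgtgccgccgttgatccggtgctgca
Mxd4, chr5:34187661-34187960, minus strand: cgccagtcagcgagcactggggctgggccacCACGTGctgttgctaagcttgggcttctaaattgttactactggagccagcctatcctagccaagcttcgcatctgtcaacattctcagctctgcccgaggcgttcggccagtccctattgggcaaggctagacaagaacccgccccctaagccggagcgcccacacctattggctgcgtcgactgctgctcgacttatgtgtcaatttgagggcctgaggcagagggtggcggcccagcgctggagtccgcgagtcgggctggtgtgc
Mnt, chr11:74830674-74830973, plus strand: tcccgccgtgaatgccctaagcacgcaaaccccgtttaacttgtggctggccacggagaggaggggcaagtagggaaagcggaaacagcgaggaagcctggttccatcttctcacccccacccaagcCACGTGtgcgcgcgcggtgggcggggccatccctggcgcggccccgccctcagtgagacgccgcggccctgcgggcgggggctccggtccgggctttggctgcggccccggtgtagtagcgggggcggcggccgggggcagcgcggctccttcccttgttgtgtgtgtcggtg
Mlx, chr11:101087040-101087339, plus strand: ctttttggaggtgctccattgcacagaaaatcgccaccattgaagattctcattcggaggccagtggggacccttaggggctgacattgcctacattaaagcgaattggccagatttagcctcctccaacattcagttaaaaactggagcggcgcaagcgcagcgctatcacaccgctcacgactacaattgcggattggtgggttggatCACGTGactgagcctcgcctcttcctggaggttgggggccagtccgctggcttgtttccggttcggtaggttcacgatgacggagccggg

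The E-box begins 3 bases before the start in Max and spans it. In Mlx it begins 40 bases, in Mnt 123 bases and in Mxd4 219 bases before the start. The E2F-type matches of Mycn begin 183, 179 and 168 bases before its start. Mxd1, Mxd3 and Mxi1 hold neither motif in these windows. A match of letters is a description of the window and shows no binding.

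**Figure D1:**
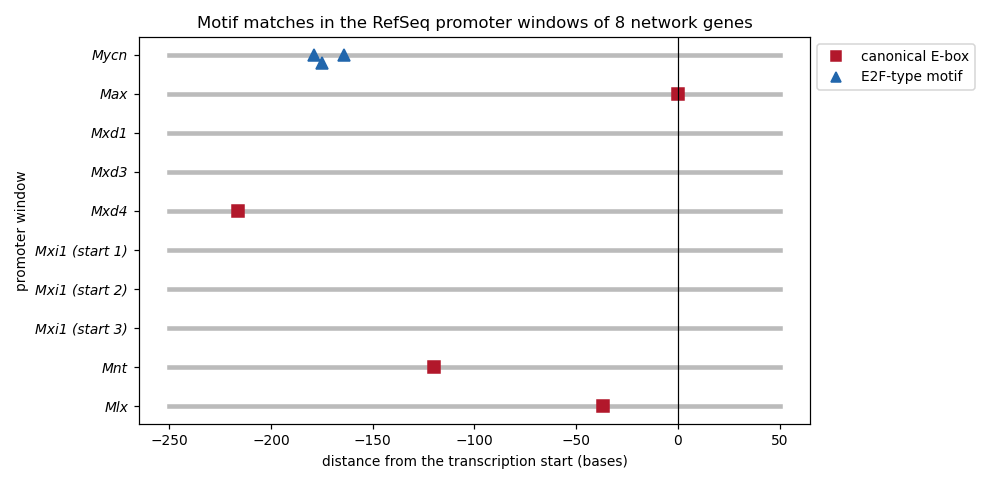
Each grey line is a promoter window, from 250 bases before to 50 bases after the transcription start, with distance from the start in bases on the horizontal axis. Red squares mark the canonical E-box, found once each in Max, Mxd4, Mnt and Mlx, and blue triangles the 3 E2F-type matches of Mycn, the match on the opposite strand drawn lower.

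Mycn, the MYC paralogue best known from embryonic and neural tissue, had the widest range of the 9 genes, 2.24 log2 units over 16 arrays. In control cells with vehicle it read 9.61, 9.61, 9.39 and 9.49 on the log2 scale (arrays 1 to 4). With MG132 the control arrays read 7.79, 7.67, 7.80 and 7.89, all below every vehicle array. Knockdown cells read 7.63, 7.48, 7.52 and 7.37 with vehicle and 7.62, 7.69, 7.46 and 7.61 with MG132, so their 2 groups overlapped, within or below the range of the control arrays with MG132. Only the untreated control arrays stood apart from the rest.

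In control cells MG132 lowered Mycn 3.33-fold (log2 difference -1.74 ± 0.07, limma adjusted p = 3.79e-12). In knockdown cells its difference was 0.10 ± 0.07 (95% interval -0.04 to 0.23, limma adjusted p = 0.268). With vehicle Mycn was 4.07-fold lower in knockdown than in control cells (-2.03 ± 0.07, limma adjusted p = 1.21e-13). With MG132 the line difference was -0.19 ± 0.07 (limma adjusted p = 0.0286), and there the arrays overlapped (exact two-sided permutation p = 0.0571). That smaller call was lost without control MG132 array 1, 3 or 4 or knockdown MG132 array 3 (log2 difference -0.15 to -0.19, limma adjusted p 0.0554 to 0.107). The MG132 responses of the lines differed by 1.83 ± 0.09 (limma adjusted p = 5.53e-09). The control vehicle arrays enter all 3 large values, which are therefore not separate evidence. The 3 low group means of Mycn, 7.50 to 7.79, lay near the array medians and in the range of the muscle marker Myod1 (group means 7.66 to 7.78) and the neuron marker Rbfox3 (7.38 to 7.55), as far as levels of different probe sets can be set side by side. No detection calls were used, so Mycn is not shown to be above background there. The fold changes against these groups may be lower bounds, a further fall in knockdown cells could have gone unseen, and the difference of the responses is subject to the same limit.

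Myc, the broadly expressed member of the pair, was among the brightest genes (95.1st percentile by mean level) and moved by far less. Control cells read 12.31, 12.24, 12.19 and 12.27 with vehicle and 12.16, 12.20, 12.25 and 12.30 with MG132, and these arrays overlapped throughout. Knockdown cells read 12.01, 12.01, 12.05 and 11.94 with vehicle, below every other array of the study, and 12.29, 12.42, 12.45 and 12.34 with MG132. Myc was lower in knockdown cells at rest and higher in them under the inhibitor.

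The Myc line difference was -0.25 ± 0.04 with vehicle (limma adjusted p = 0.000138) and 0.15 ± 0.04 with MG132 (limma adjusted p = 0.0116), where the arrays overlapped (exact permutation p = 0.0571). MG132 raised Myc in knockdown cells by 0.37 ± 0.04, a 29.5% increase (limma adjusted p = 2.06e-06). In control cells its difference was -0.03 ± 0.04 (95% interval -0.12 to 0.07, limma adjusted p = 0.708). The responses differed by 0.40 ± 0.06 (limma adjusted p = 0.000383).

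Max, which every MYC dimer needs, was lowest in untreated knockdown cells, as Myc was. Control cells read 11.58, 11.61, 11.62 and 11.60 with vehicle, the tightest group of the whole network, and 11.70, 11.69, 11.63 and 11.67 with MG132. Knockdown cells read 11.26, 11.35, 11.34 and 11.37 with vehicle and 11.64, 11.55, 11.63 and 11.59 with MG132. The untreated knockdown arrays lay below all others, and with MG132 the mean of knockdown cells (11.60) equalled that of untreated control cells. Max was lower by 0.27 in knockdown cells with vehicle (log2 difference -0.27 ± 0.03, limma adjusted p = 2.85e-06). MG132 raised it there by the same amount, 0.27 ± 0.03 (limma adjusted p = 3.32e-06). In control cells the difference was 0.07 ± 0.03 (limma adjusted p = 0.118), although the arrays did not overlap (two-sided exact permutation p = 0.0286, a value no test of 4 against 4 arrays can go below). The responses differed by 0.20 ± 0.05 (limma adjusted p = 0.00757).

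Mnt, the MAX-bound repressor that is present in most cells and opposes MYC, rose with MG132 in both lines. It read 9.23, 9.15, 9.19 and 9.17 in control cells with vehicle and 9.63, 9.64, 9.62 and 9.71 with MG132. Knockdown cells read 9.14, 9.07, 9.08 and 9.11 with vehicle and 9.60, 9.61, 9.61 and 9.54 with MG132. Every MG132 array was above every vehicle array of either line. The increases were 0.47 ± 0.03 in control (1.38-fold, limma adjusted p = 6.14e-09) and 0.49 ± 0.03 in knockdown cells (1.40-fold, limma adjusted p = 3.13e-09). They differed by 0.03 ± 0.05, with a 95% interval of -0.07 to 0.12. Mnt was the only member called in the same direction in both responses. Its line difference with vehicle was -0.09 ± 0.03 and passed narrowly (limma adjusted p = 0.0489). That call was lost on leaving out any of 12 single arrays, 6 of them vehicle arrays (control 1, 3 and 4, knockdown 2, 3 and 4) and 6 MG132 arrays (1, 2 and 3 of each line), with limma adjusted p from 0.0533 to 0.136. It was also lost with the arrays centred on their medians (0.225). With MG132 the line difference was -0.06 ± 0.03 (limma adjusted p = 0.178).

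**Figure D2:**
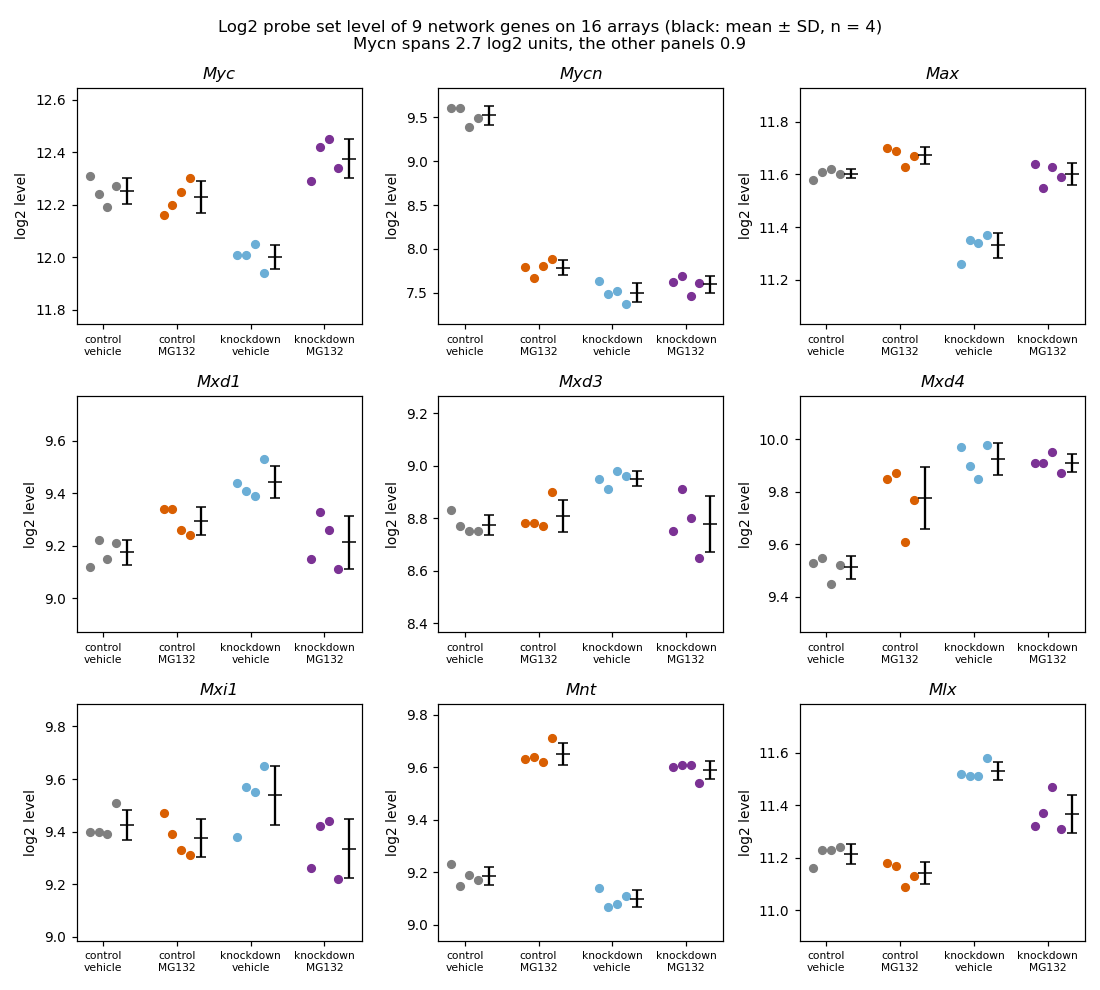
Each panel shows 1 gene, with the log2 probe set level on the vertical axis and the 4 groups on the horizontal axis. Coloured points are single arrays in replicate order and black bars the mean ± SD (n = 4). Mycn has a wider axis: only its control vehicle arrays (9.39 to 9.61) stand above 7.89, while the untreated knockdown arrays are lowest for Myc and Max, and Mnt is higher in both MG132 groups.

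The 4 genes of the MXD repressors proper, which apart from Mxd3 are linked to cell-cycle exit and differentiation, all had their highest mean in untreated knockdown cells. Mxd4 read 9.53, 9.55, 9.45 and 9.52 in control cells with vehicle, below all other arrays, and 9.85, 9.87, 9.61 and 9.77 with MG132. Knockdown cells read 9.97, 9.90, 9.85 and 9.98 with vehicle and 9.91, 9.91, 9.95 and 9.87 with MG132, and these overlapped. Mxd4 was 0.41 ± 0.05 higher in knockdown than in control cells with vehicle (limma adjusted p = 2.97e-06). MG132 raised it by 0.26 ± 0.05 in control cells (limma adjusted p = 0.000439) against -0.02 ± 0.05 in knockdown cells (95% interval -0.12 to 0.09, limma adjusted p = 0.833). That last value turned to 0.06 with quantile normalization repeated. The responses of Mxd4 differed by -0.28 ± 0.07 (limma adjusted p = 0.0142), which missed the threshold with quantile normalization repeated (limma adjusted p = 0.0513). In its 4 group means Mxd4 was the reverse of Mycn, lowest where Mycn was highest, with r = -0.908 over the 16 arrays and -0.104 over their deviations from the group means. With MG132 the line difference of Mxd4 was 0.14 ± 0.05 and passed narrowly (limma adjusted p = 0.0434). It was lost on leaving out any of 9 single arrays (control vehicle 1, 2 and 4, knockdown vehicle 2, control MG132 3 and 4, and knockdown MG132 1, 2 and 3), down to 0.08 without control MG132 array 3 (limma adjusted p = 0.159).

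Mxd1 read 9.12, 9.22, 9.15 and 9.21 in control cells with vehicle and 9.34, 9.34, 9.26 and 9.24 with MG132. In knockdown cells it read 9.44, 9.41, 9.39 and 9.53 with vehicle, above all other arrays, and 9.15, 9.33, 9.26 and 9.11 with MG132. It was 0.27 ± 0.05 higher in untreated knockdown cells (limma adjusted p = 0.000225) and fell there by 0.23 ± 0.05 with MG132 (limma adjusted p = 0.000948). In control cells it read 0.12 ± 0.05 higher with MG132, which did not pass (limma adjusted p = 0.0673) although the arrays did not overlap. It passed without knockdown MG132 array 2 (limma adjusted p = 0.0455). The difference of the responses, -0.35 ± 0.07, was the most negative of the network (limma adjusted p = 0.00245).

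Mxd3, a member tied to dividing cells, kept within 0.33 log2 units over all arrays, from 8.65 to 8.98. Untreated knockdown cells held the highest mean (8.95 ± 0.03, SD, n = 4), and the other 3 groups had means of 8.78 to 8.81. It was 0.18 ± 0.05 higher in knockdown cells with vehicle (limma adjusted p = 0.00647) and fell in them by 0.17 ± 0.05 with MG132 (limma adjusted p = 0.0074). Both calls were lost with quantile normalization repeated (limma adjusted p = 0.0857 and 0.107). Its difference of the responses was -0.21 ± 0.07 and did not pass (limma adjusted p = 0.0516). It passed without control vehicle array 1 or knockdown MG132 array 2 (limma adjusted p = 0.0464 and 0.0122).

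Mxi1, also known as Mxd2, was the repressor with the least separation of its groups. Its means were 9.43 ± 0.06 and 9.38 ± 0.07 in control cells with vehicle and MG132, and 9.54 ± 0.11 and 9.34 ± 0.11 in knockdown cells (SD, n = 4 each). All neighbours in that order overlapped. It fell with MG132 in knockdown cells by 0.20 ± 0.06 (limma adjusted p = 0.0133). That call was lost on leaving out array 4 of either knockdown group, vehicle or MG132 (limma adjusted p = 0.0534 and 0.0518) and with quantile normalization repeated (0.125). Its line difference with vehicle, 0.11 ± 0.06, did not pass (limma adjusted p = 0.175), but did without knockdown vehicle array 1 (0.17, limma adjusted p = 0.0313).

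Mlx stood higher in the knockdown line under both treatments. Control cells read 11.16, 11.23, 11.23 and 11.24 with vehicle and 11.18, 11.17, 11.09 and 11.13 with MG132. Knockdown cells read 11.52, 11.51, 11.51 and 11.58 with vehicle and 11.32, 11.37, 11.47 and 11.31 with MG132. All 8 knockdown arrays lay above all 8 control arrays. The line difference was 0.32 ± 0.04 with vehicle (limma adjusted p = 3.2e-06) and 0.23 ± 0.04 with MG132 (limma adjusted p = 0.000135). MG132 lowered Mlx in knockdown cells by 0.16 ± 0.04 (log2 difference -0.16, limma adjusted p = 0.00248). In control cells it read -0.07 ± 0.04 (limma adjusted p = 0.17), which passed with the arrays centred on their medians (-0.13, limma adjusted p = 0.0477). The responses were not shown to differ (-0.09 ± 0.05, 95% interval -0.21 to 0.03).

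**Figure D3:**
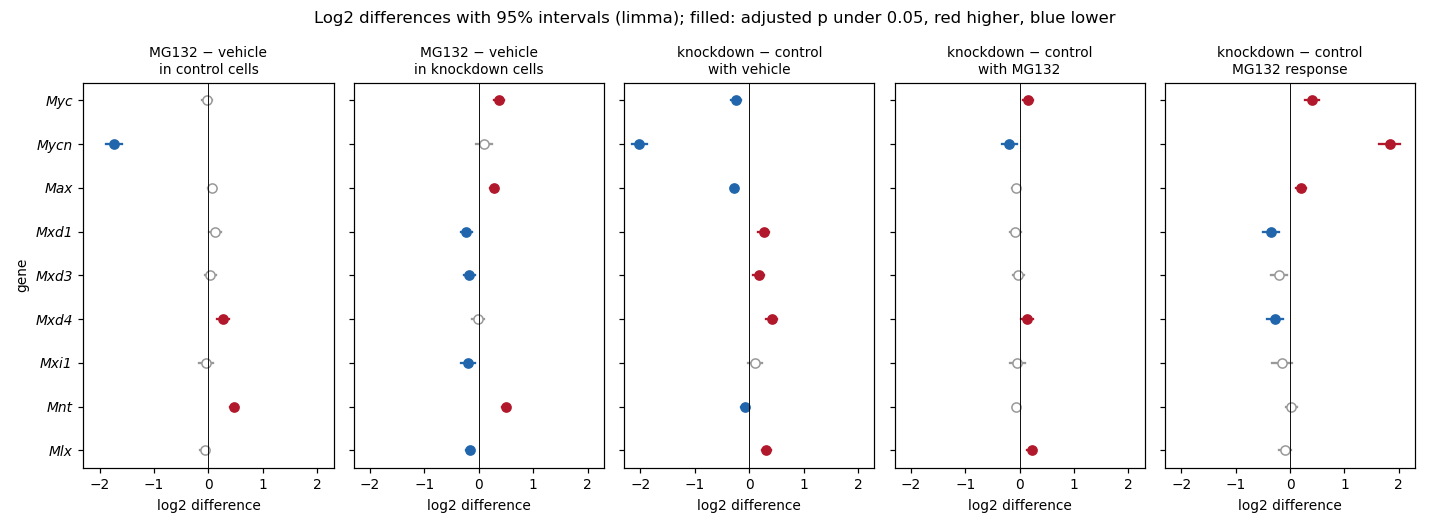
Points are log2 differences of the 9 genes in the 5 comparisons, with 95% intervals from limma on the horizontal axis. Filled points passed at an adjusted p under 0.05, red higher and blue lower. Mycn stands apart at -1.74 and -2.03 in the control response and the vehicle line comparison and at 1.83 for the difference of the responses, and no other value exceeds 0.49 in size.

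Counted over the comparisons, MG132 changed 3 of 9 members in control cells, where 35.8% of all genes were called: Mnt and Mxd4 rose and Mycn fell. In knockdown cells it changed 7 of 9, where 40.7% of all genes were called. Myc, Max and Mnt rose, while Mxd1, Mxd3, Mxi1 and Mlx fell. Between the lines with vehicle 8 of 9 differed, against 39.4% of all genes, with Mxd1, Mxd3, Mxd4 and Mlx higher and Myc, Mycn, Max and Mnt lower in knockdown cells. With MG132 4 of 9 differed, against 38.1% of all genes, namely Myc, Mxd4 and Mlx higher and Mycn lower. That last count fell to 2 without control MG132 array 3 or 4 or knockdown MG132 array 3. With quantile normalization repeated, 3 members rose and 2 fell in the knockdown response (2834 and 4744 of all 19938 genes). Between the lines 3 were then higher and 4 lower with vehicle (4292 and 3743 genes), and 3 and 2 with MG132 (3870 and 3971). The control response kept 2 higher and 1 lower (3002 and 4160). The arrays of the compared groups did not overlap for 5 of 9 members in the control response (32.9% of all genes), 5 in the knockdown response (38.5%), 8 between the lines with vehicle (38.7%) and 2 with MG132 (34.7%). The median over the members was 0.03, -0.02, 0.11 and -0.04 in these comparisons, beside 0.03, 0.03, -0.01 and 0.00 over all genes. The difference of the MG132 responses passed for 5 of 9 members, against 14.6% of all genes: Mycn, Myc and Max were higher and Mxd1 and Mxd4 lower in the knockdown response. With quantile normalization repeated, 3 members were higher and 1 lower (1091 and 1680 of all 19938 genes). The comparisons share arrays, and untreated knockdown cells enter both the second and the third, so the opposite signs of Myc, Max, Mxd1, Mxd3, Mnt and Mlx in these are in part the same measurement.

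The order of the groups differed between members. For Myc it ran from knockdown MG132 through control vehicle and control MG132, whose neighbours overlapped, down to knockdown vehicle, which stood apart. Max stood lowest in the same group. Mxd1, Mxd3, Mxd4, Mxi1 and Mlx were all highest in untreated knockdown cells. For Mxd1 its mean was 0.15 above the next and no arrays overlapped. For Mxd3 its mean was 0.14 above the next, whose arrays it did not overlap, but it overlapped those of knockdown cells with MG132. For Mxd4 and Mxi1 it overlapped the next. For Mlx only control vehicle and control MG132 overlapped among neighbours, and for Mnt no neighbours did. Over the 16 arrays Myc correlated with Max at r = 0.719 and with Mxd1 at -0.722. Over deviations from the group means these were -0.449 and -0.022, so they describe the 4 groups and not the plates.

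The other genes were ranked by likeness over the 16 arrays, leaving out gene models, clones and small RNAs. Of those ranked, the most like Mycn were Wnt7b, a Wnt ligand (r = 0.985), Hk2, a hexokinase of glycolysis (0.971), Tead4, a partner of YAP (0.968), Spry1, a feedback inhibitor of growth factor signalling (0.968), and Rnf39 (0.965). Wnt7b had means of 9.08 in control cells with vehicle, 8.02 in them with MG132, and 7.69 and 7.76 in knockdown cells with vehicle and MG132. Most like Myc were the polo-like kinases Plk3 (0.94) and Plk2 (0.901), Xbp1, a factor of the unfolded protein response (0.885), Phlda1 (0.885) and Pld4 (0.885). Plk3 had means of 10.78 and 10.77 in control cells and 10.52 and 10.89 in knockdown cells, with vehicle and MG132. These coefficients rest on 16 arrays that share 4 groups.

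Genes that MYC is known to activate were taken as a list of 32, of which 31 were measured. In control cells 6 rose and 15 fell with MG132 (median -0.10), in knockdown cells 10 rose and 9 fell (median 0.05). All genes tested had medians of 0.03 in both, with 16.8% called higher and 19.0% lower in control cells and 16.4% and 24.3% in knockdown cells. Tfrc, the transferrin receptor, fell in both lines, by 1.09 ± 0.03 and by 0.80 ± 0.03 on the log2 scale (limma adjusted p = 1.37e-13 and 1e-11). Ccnd2, cyclin D2, fell by 0.31 ± 0.03 in control cells (limma adjusted p = 8.9e-07). The nucleolar genes Nop56 and Nop58 rose in both lines. The increases were 0.24 ± 0.03 and 0.30 ± 0.04 in knockdown cells (limma adjusted p = 2.57e-06 and 4.04e-06). In control cells they were 0.085 ± 0.03 and 0.12 ± 0.04 (limma adjusted p = 0.0271 and 0.0159). Between the lines with vehicle 1 was higher and 18 were lower in knockdown cells (median -0.12), against 21.5% higher and 17.9% lower among all genes. Ccnd2 was 3.11-fold lower (-1.64 ± 0.03, limma adjusted p = 2.81e-16) and Polr1b, a subunit of RNA polymerase I, was lower by 0.51 (log2 difference -0.51 ± 0.04, limma adjusted p = 2.73e-08). With MG132 6 were higher and 6 lower (median 0.04), against 17.7% and 20.3% of all genes. Ccnd2 (-1.41 ± 0.03), Polr1b (-0.33 ± 0.04) and Cad, the first enzyme of pyrimidine synthesis (-0.34 ± 0.04), were among those that remained lower (limma adjusted p = 2.61e-15, 6.24e-06 and 1.29e-06). Eif4e, the cap-binding translation factor, was higher (0.28 ± 0.04, limma adjusted p = 5.52e-06). The knockdown response was called above the control response for 10 and below it for 0 of 31 by limma (17 and 0 at an unadjusted p under 0.05), where 4.45% and 10.1% of all genes were called. The median was 0.14 beside -0.01 over all genes, and Dkc1, a nucleolar pseudouridine synthase, named here after its values were seen, had the highest value (0.33 ± 0.06, limma adjusted p = 0.0011). Untreated knockdown cells enter the vehicle line comparison, the knockdown response and the difference of the responses. The 18 lower and the 10 above are thus in part the same measurement. Counts of the lists below share arrays in the same way.

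Of 9 measured genes that MYC is known to repress, 3 rose and 3 fell in control cells (16.8% and 19.0% of all genes). In knockdown cells 2 rose and 4 fell (16.4% and 24.3%). The growth arrest gene Gadd45a rose by 2.20 ± 0.03 and 2.36 ± 0.03, and Ndrg1 by 1.14 ± 0.04 and 1.12 ± 0.04. Gas1, another growth arrest gene, fell by 0.82 ± 0.06 and by 1.16 ± 0.06 (limma adjusted p for the 3 genes from 3.54e-17 to 6.16e-09). Between the lines with vehicle 4 were higher and 1 lower in knockdown cells (21.5% and 17.9% of all genes). Gas1 was higher by 1.04 ± 0.06 (limma adjusted p = 1.29e-10). With MG132 4 were higher and 2 lower (17.7% and 20.3% of all genes). The knockdown response of these 9 genes was called above the control response for 2 and below it for 3 (4.45% and 10.1% of all genes). Their median difference of the responses was -0.005, beside -0.01 over all genes.

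Among 7 genes reported as targets of MLX with MondoA or ChREBP, 3 rose and 2 fell in control cells (16.8% and 19.0% of all genes). In knockdown cells 4 rose and 2 fell (16.4% and 24.3%). The arrestin genes Txnip and Arrdc4 rose by 0.85 ± 0.06 and 0.75 ± 0.05 in control cells (limma adjusted p = 5.05e-09 and 4.82e-09). In knockdown cells Txnip read -0.12 ± 0.06 (limma adjusted p = 0.131), Arrdc4 rose by 0.28 ± 0.05 (limma adjusted p = 0.000275), and Arrdc3 and Klf10 fell by 1.21 ± 0.06 and by 0.72 ± 0.06 (limma adjusted p = 7.02e-11 and 2.45e-08). Klf10 fell in control cells too (-0.355 ± 0.06, limma adjusted p = 7.84e-05), where Arrdc3 read -0.05 ± 0.06 (limma adjusted p = 0.557). The knockdown response was called below the control response for 4 of the 7 (10.1% of all genes) and above it for 1 (4.45% of all genes), Hk2 (0.65 ± 0.05, limma adjusted p = 8.88e-07). Hk2 fell in control cells by 0.52 ± 0.04 and rose in knockdown cells by 0.13 ± 0.04 (limma adjusted p = 9.03e-09 and 0.00994). With vehicle 4 were higher and 2 lower in knockdown cells (21.5% and 17.9% of all genes). With MG132 1 was higher and 5 lower (17.7% and 20.3%).

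**Figure D4:**
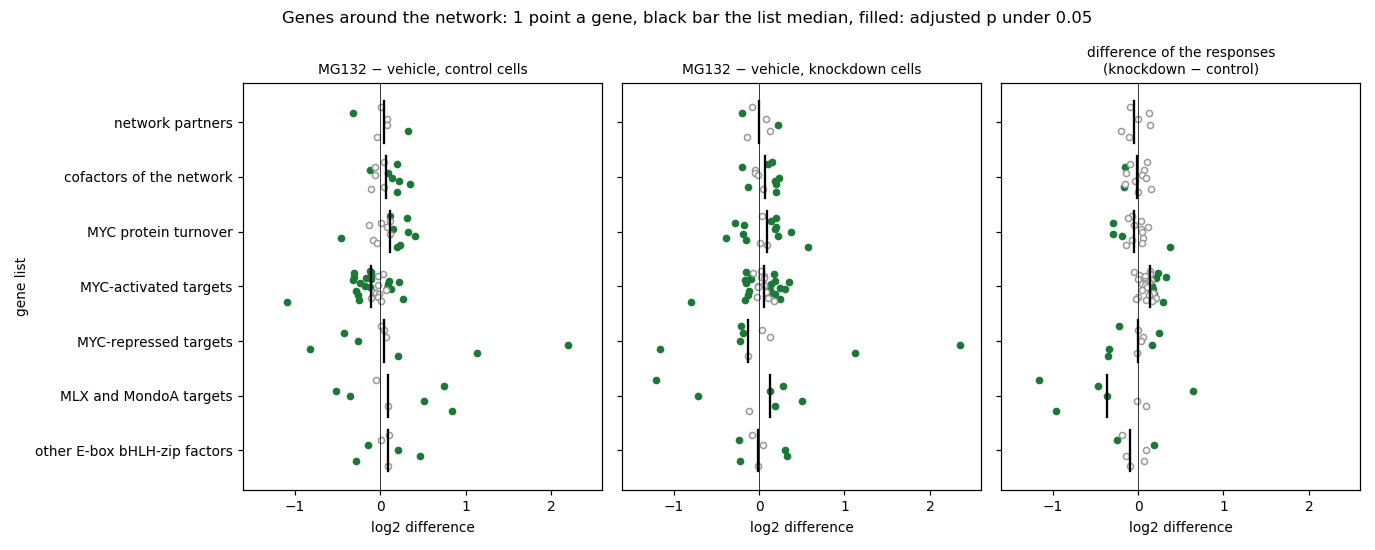
Each point is 1 gene of a list around the network, with its log2 difference on the horizontal axis, filled where the adjusted p is under 0.05, and black bars are list medians. The MYC-activated genes have medians of -0.10 in control cells, 0.05 in knockdown cells and 0.14 for the difference of the responses.

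The genes that mark MYC proteins for destruction or protect them moved in both directions. Of 15 measured, 7 rose and 1 fell in control cells (16.8% and 19.0% of all genes), and 7 rose and 5 fell in knockdown cells (16.4% and 24.3%). Skp2, a ubiquitin ligase subunit that targets MYC, fell by 0.45 ± 0.03 and by 0.39 ± 0.03 (limma adjusted p = 6.1e-09 and 3.21e-08). Ppp2r5a, a phosphatase subunit, rose by 0.41 ± 0.04 in control and 0.23 ± 0.04 in knockdown cells (limma adjusted p = 1.64e-07 and 0.000121). Usp36, a nucleolar deubiquitinase, rose by 0.20 ± 0.03 in control and 0.57 ± 0.03 in knockdown cells (limma adjusted p = 7.45e-05 and 4.42e-10). Between the lines 5 were higher and 5 lower with vehicle (21.5% and 17.9% of all genes), and 4 and 3 with MG132 (17.7% and 20.3%). The kinase Pim1 was higher in knockdown cells by 0.94 ± 0.05 and 0.98 ± 0.05 (limma adjusted p = 7.43e-11 and 5.06e-11), and the ligase gene Fbxo32 by 0.93 ± 0.06 and 0.64 ± 0.06 (limma adjusted p = 6.34e-10 and 9.85e-08).

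Of 12 measured cofactors, 6 rose and 1 fell in control cells (16.8% and 19.0% of all genes), and 6 rose and 2 fell in knockdown cells (16.4% and 24.3%). The SIN3 scaffolds through which MXD proteins repress rose in both lines, Sin3b by 0.35 ± 0.04 and 0.20 ± 0.04 and Sin3a by 0.22 ± 0.03 and 0.18 ± 0.03 (limma adjusted p from 6.1e-06 to 0.00162). Ruvbl2, an ATPase of MYC-bound chromatin complexes, rose by 0.14 ± 0.04 in control and 0.23 ± 0.04 in knockdown cells (limma adjusted p = 0.0044 and 3.81e-05). Between the lines 2 of 12 were higher and 7 lower in knockdown cells with vehicle (21.5% and 17.9% of all genes), and 1 and 5 with MG132 (17.7% and 20.3%). Sin3a (-0.29 ± 0.03 and -0.32 ± 0.03) and the deacetylase Hdac1 (-0.23 ± 0.03 and -0.38 ± 0.03) were among those lower in both (limma adjusted p from 3.99e-08 to 1.35e-05). Sin3b was higher in both, by 0.29 ± 0.04 and 0.14 ± 0.04 (limma adjusted p = 3.43e-05 and 0.0194).

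Of 6 further partners or E-box relatives, 1 rose and 1 fell with MG132 in each line. Of all genes 16.8% rose and 19.0% fell in control cells, and 16.4% and 24.3% in knockdown cells. Mlxip, which encodes MondoA, fell in both lines, by 0.32 ± 0.03 in control and by 0.20 ± 0.03 in knockdown cells (limma adjusted p = 6.04e-07 and 0.000121). Usf1 rose in control cells (0.33 ± 0.06, limma adjusted p = 0.000387) and Mycl, the third MYC paralogue, in knockdown cells (0.23 ± 0.05, limma adjusted p = 0.00186). Between the lines 1 was higher and 0 lower with vehicle (at an unadjusted p under 0.05 the lower count was 1, Mycl), and 2 and 1 with MG132. The shares of all genes were 21.5% and 17.9% with vehicle, and 17.7% and 20.3% with MG132. For 0 of the 6, against 14.6% of all genes, did the difference of the responses pass (limma, with 2, Mlxip and Usf1, at an unadjusted p under 0.05). Of 7 other E-box factors 2 rose and 2 fell with MG132 in each line, beside the same shares of all genes as for the partners. Tfe3, a lysosomal regulator, rose by 0.47 ± 0.03 and 0.33 ± 0.03, and Tfap4 by 0.21 ± 0.04 and 0.31 ± 0.04 (limma adjusted p from 3.83e-09 to 0.000858). Mitf was higher in knockdown cells by 0.52 ± 0.04 with vehicle and 0.33 ± 0.04 with MG132 (limma adjusted p = 3.68e-08 and 1.04e-05).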

How the data were processed

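RNA of 16 plates was read on 1 array each. The authors deposited log2 probe set values, made with RMA and Partek per the submitters' processing notes; their versions and settings: not given in the sources used here. Array scanner files were not used here. RMA sets all arrays to 1 distribution, so a change shared by most genes is not visible, and low levels are compressed. Of 35556 probe sets, 21789 carried 1 symbol, and the brightest of each gene gave 19938 genes. Group means were fitted in R 4.3.3 with limma 3.58.1 (lmFit, eBayes, 12 residual degrees of freedom), with Benjamini-Hochberg adjustment over all genes and a threshold of 0.05. Simulated data with known changes were used to test the script. Errors of differences are limma's standard errors. Exact permutation tests were two-sided (scipy 1.17.1). The members and lists were chosen with earlier results of these data known. From each list up to 4 genes with the smallest p per comparison of 2 groups were named, if they passed, beside the 5 genes most like Myc and Mycn. Alternatives covered normalization, centring, filters, probe sets, the arrays fitted, the prior, weights, a replicate block and leaving out each array.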

Additional observations from a re-analysis of the deposited data

Results flagged for a closer look

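In 5 of 36 sets of 4 arrays (9 genes in 4 groups) 1 array lay far from the other 3, its gap to the nearest, as a share of the range of the set, passing Dixon's 95% critical value; chance gives this in about 1 in 20 sets. For Mxd3 in control cells with MG132, array 4 was high (a gap of 0.923 of the range). For Mxi1 in control cells with vehicle, array 4 was high (0.917). Mnt was low on array 4 of knockdown cells with MG132 (0.857). Mlx was low on array 1 of control cells with vehicle (0.875) and high on array 4 of knockdown cells with vehicle (0.857).

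The MG132 response of knockdown cells minus that of control cells passed limma's test for 5 members, on the log2 scale 1.83 for Mycn, 0.40 for Myc, 0.20 for Max, -0.35 for Mxd1 and -0.28 for Mxd4. Among the genes named for their likeness to Mycn or Myc, which were picked for that pattern, it was 1.13 for Wnt7b, 0.72 for Spry1, 0.65 for Hk2, 0.64 for Rnf39, 0.55 for Phlda1, 0.43 for Plk2, 0.43 for Xbp1, 0.39 for Plk3, 0.29 for Tead4 and 0.20 for Pld4. Of the other named genes it was higher for Usp36 (0.37), Dkc1 (0.33), Tfrc (0.29), S100a4 (0.26), Ccnd2 (0.23), Eif4e (0.21), Nop58 (0.18), Gadd45a (0.16) and Nop56 (0.15). It was lower for Arrdc3 (-1.16), Txnip (-0.96), Arrdc4 (-0.47), Klf10 (-0.36), Gas1 (-0.34), Fbxo32 (-0.29), Ppp2r5a (-0.19) and Hdac1 (-0.15).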

How the results depend on the processing

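Small differences changed with the processing, and the cause was not tested. Of values of single genes, 686 of 720 kept direction and side of the threshold on leaving out 1 array, and 457 of 486 under the other settings. These differences, none of them called, changed sign: Mxd3 in control cells to -0.02 with the arrays centred on their medians; Mxd4 in knockdown cells to 0.056 with quantile normalization repeated, to 0.0097 with array weights and, leaving out each array, between -0.04 and 0.0033 (without knockdown vehicle array 4); and Mxd3 between the lines with MG132 leaving out each array, between -0.074 and 0.0125 (above 0 without array 4 of either MG132 group). A within-group gradient, the first principal component of deviations from the group means, held 37.1% of the within-group variance. Deviations of the members correlated with it at r from -0.743 (Mnt) to 0.378 (Max). An alternative chosen after seeing the data left out the 4 arrays at the low end of this gradient (knockdown vehicle 1, control MG132 4, control vehicle 1 and 4). It gave 0.0017 for Mxi1 in control cells, 0.00083 for Mxd3 between the lines with MG132, and 2 members called in that comparison in place of 4. It also ended the calls of the Mxd4 difference of responses (limma adjusted p = 0.0637) and the Mnt line difference with vehicle (0.116), and the Mxi1 line difference with vehicle passed (0.20, limma adjusted p = 0.0388). Between the lines with MG132, leaving out each array gave 2 to 4 members called. With the replicate block 3, 7, 7, 4 and 5 members were called in the order of the comparisons; the Mnt line difference with vehicle was lost (limma adjusted p = 0.0753). Whether replicate numbers pair the arrays is not settled by these values. Same-numbered arrays deviated together with r from -0.450 to 0.428, and 7 of 16 correlated best with their own number. The median r was 0.093 for same-numbered arrays and -0.055 for other numbers. The main fit used no pairing. The difference of the responses has no value from only the groups compared. With 4 arrays a group, precision is limited.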
